A study of Mus musculus with 4 samples.

Results

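The 10 genes described here act in calcium handling at the sarcoplasmic reticulum of heart muscle cells. All were followed in cardiomyocytes of pressure-overloaded mice. They were chosen by their known role, as Ryr2, Trdn, Jph2 and Casq2 on the release side, Atp2a2, Pln and Sln on the uptake side, Slc8a1 for extrusion, and the modulators Camk2d and S100a1. These are 10 of 22322 genes in the files, and all 10 were among the 12499 genes that passed the low-count filter. RNA of isolated cardiomyocytes was sequenced from male mice 14 weeks after transverse aortic constriction (TAC), which narrows the aorta and loads the left ventricle, or after a sham operation. Each group had 2 libraries, each from a separate heart by the study's methods. The cells came from enzyme perfusion of the heart, a preparation that can hold other cell types, and no genotype, strain or drug treatment is given in the labels.

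In a heartbeat, calcium entering through the surface membrane opens the ryanodine receptor, and the store empties into the cytosol to start contraction. Relaxation follows when the calcium pump SERCA2a refills the store and the sodium-calcium exchanger carries the remainder out of the cell. Small membrane proteins restrain the pump, calsequestrin holds calcium inside the store, and kinases and calcium-binding proteins tune each step.

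In TAC, Casq2 and S100a1 rose, each by about 1.3-fold, and were the members called by edgeR. Ryr2 was lower in both TAC libraries but missed the threshold, and Atp2a2 and Pln, the most abundant members, differed by less. This makes 2 of 10 members called, against 5.01% of all genes tested. By direction, 2 members were called higher, against 2.58% of all genes. Members called lower numbered 0, against 2.43% of all genes, with 1 by DESeq2 and 1 by limma-voom, in both cases Ryr2, where 7.4% and 5.54% of all genes were called in either direction. Without sham 1 or without TAC 1, members called in edgeR numbered 0, where 4.55% and 2.34% of all genes were called. At an unadjusted p under 0.05 there were 5 members of 10, against 27.5% of all genes. The libraries of the 2 groups did not overlap for 6 members, 4 higher and 2 lower, against 60.1% of all genes, so this count is near the background. The median log2 change of the members was 0.04, beside -0.01 over all genes.

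**Figure D1:**
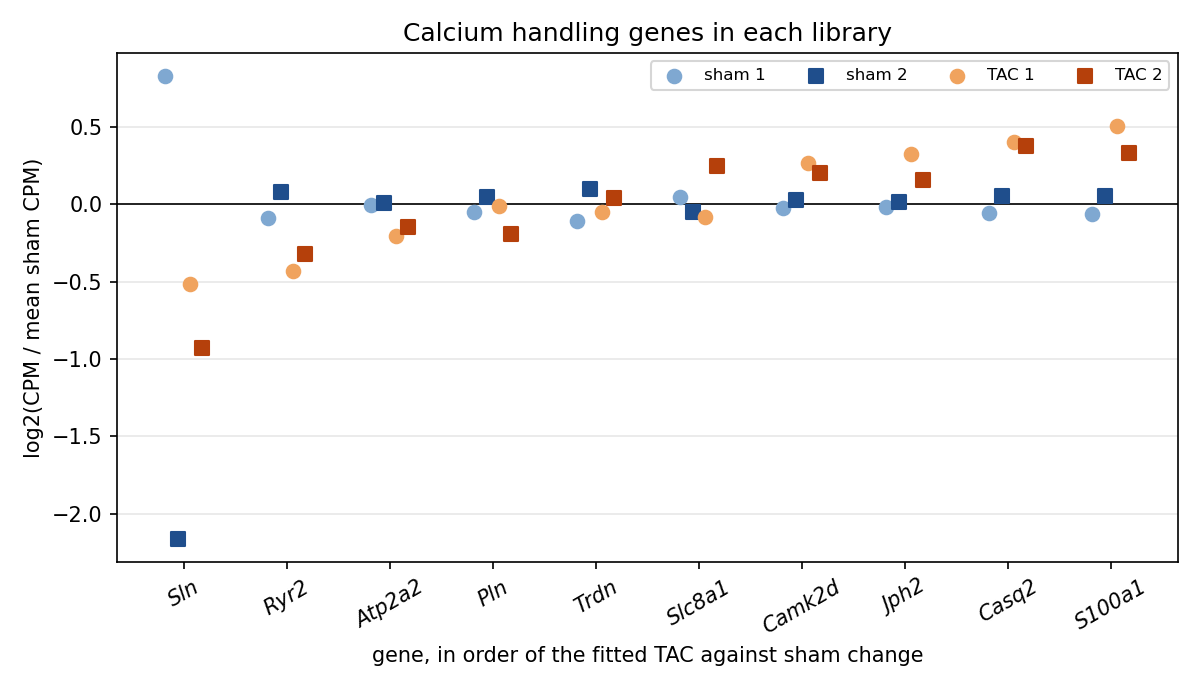
Each point is the CPM of a gene in a library, on a log2 scale relative to the mean of the 2 sham libraries, with genes ordered by the fitted change. Casq2 and S100a1 lie above both sham libraries in both TAC libraries, Ryr2 lies below them, and the sham libraries of Sln are the farthest apart.

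TMM scaling sets the bulk of genes level, and with scaling to total counts, which the study's methods name, the median over all genes was -0.20 on the log2 scale. Mitochondrial transcripts took 39.84% and 40.85% of counts in the sham libraries and 47.42% and 40.35% in the TAC libraries. With total counts only Ryr2 was called among the members, as lower, against 4.22% of all genes called in either direction. Ratios of counts within a library do not depend on the scaling.

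The ryanodine receptor Ryr2 (ENSMUSG00000021313), the release channel itself, lies on the minus strand of chr13:11553102-12106945 (mm10). Its levels were 1554 and 1743 CPM in the sham libraries and 1221 and 1319 CPM in the TAC libraries. Both TAC libraries were below both sham libraries. The log2 change was -0.38 ± 0.09 (SE from the edgeR fit, n = 2 per group), with an adjusted p of 0.0640 by edgeR. Scaling to total counts gave -0.56 with an adjusted p of 0.0490 by edgeR, and DESeq2 gave -0.38 with an adjusted p of 0.00243. The direction was the same in every alternative run, from -0.68 to -0.29, and the call was not.

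Triadin, encoded by Trdn (ENSMUSG00000019787; chr10:33080554-33476709, plus strand), anchors calsequestrin to the release channel. It stood at 215 and 248 CPM in sham and at 224 and 238 CPM in TAC. The 2 TAC values lay between the sham values, with a log2 change of 0.00 ± 0.09 and an adjusted p of 0.986 by edgeR. Junctophilin 2, encoded by Jph2 (ENSMUSG00000017817; chr2:163336242-163397993, minus strand), holds the store membrane close to the surface membrane. Its levels were 423 and 432 CPM in sham and 536 and 477 CPM in TAC, and the groups did not overlap. The log2 change of 0.25 ± 0.08 did not pass the test, with an adjusted p of 0.117 by edgeR.

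Casq2 (ENSMUSG00000027861; chr3:102086415-102146514, plus strand) encodes the cardiac calsequestrin, which buffers calcium in the store. Levels were 1062 and 1147 CPM in sham and 1460 and 1433 CPM in TAC, all TAC values above all sham values. The rise was 1.31-fold, a log2 change of 0.39 ± 0.08 with an adjusted p of 0.0455 by edgeR. The call is close to the threshold. With total counts the change was 0.20 and the adjusted p 0.337, and with sham 1, sham 2 or TAC 1 left out the adjusted p was 0.180, 0.0589 and 0.109 by edgeR. Under the replicate block the adjusted p was 0.0912 by edgeR.

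The stretches just before the RefSeq starts of Casq2 and Ryr2 are shown because the TAC libraries lay above sham for Casq2 and below it for Ryr2. Each is 250 bases, 5′ to 3′ on the gene's strand, from RefSeq on GRCm38.p6, at chr3:102086165-102086414 (plus strand) and chr13:12106946-12107195 (minus strand), with matches to the searched motifs in capitals.
Casq2: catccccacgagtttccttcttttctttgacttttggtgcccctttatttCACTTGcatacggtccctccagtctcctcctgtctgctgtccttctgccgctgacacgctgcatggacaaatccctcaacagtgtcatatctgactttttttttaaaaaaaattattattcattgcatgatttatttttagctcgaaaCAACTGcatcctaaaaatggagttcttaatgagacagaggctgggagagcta
Ryr2: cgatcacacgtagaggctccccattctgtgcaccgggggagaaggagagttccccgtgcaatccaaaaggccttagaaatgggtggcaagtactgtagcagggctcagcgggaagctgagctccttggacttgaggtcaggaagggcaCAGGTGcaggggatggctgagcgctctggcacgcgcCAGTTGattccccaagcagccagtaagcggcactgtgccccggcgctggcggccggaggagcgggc
Matches were searched on both strands of each window. The E-box, a site of basic helix-loop-helix factors with the letters CANNTG, had 2 matches in both windows. At least 1 match was held by 66.2% of 32851 promoter windows of this length. The share with 2 or more was not counted. Neither window held the letters TATAAA, known from many promoters of regulated genes and present in 12.4% of the windows. The same was so for AGATAA, a site known to bind factors of heart development and found in 9.99% of windows. Also searched without a match in either were GGAAAA, the core of the site of calcineurin-dependent factors, present in 20.4%, and the Sp1 box GGGCGG, present in 32.7%. Their bases differ in composition, with 41.6% G and C for Casq2 and 63.2% for Ryr2. Of the 10 members, 7 had a RefSeq window. The window of S100a1 held 0 matches to any of these motifs.

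On the uptake side, Atp2a2 (ENSMUSG00000029467; chr5:122453513-122502225, minus strand) encodes SERCA2a. Its levels were 16478 and 16621 CPM in sham and 14380 and 14939 CPM in TAC, with both TAC libraries lower. The log2 change of -0.17 ± 0.11 had an adjusted p of 0.345 by edgeR. Its share of the counts outside mitochondrial genes was 3.01% and 2.92% in sham and 2.37% and 2.53% in TAC. By FPKM, which is per length, it ranked from 5 to 8 among genes outside the mitochondrial genome.

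Phospholamban, encoded by Pln (ENSMUSG00000038583; chr10:53337667-53345987, plus strand), restrains the pump until it is phosphorylated. Levels were 4372 and 4694 CPM in sham and 4497 and 3966 CPM in TAC, so the groups overlapped. The log2 change was -0.10 ± 0.11, with an adjusted p of 0.576 by edgeR. Exons of Pln overlap 141 bases of Cep85l and 1644 bases of Gm47644 on the other strand. Reads from them cannot be told apart if strand was not used. The same holds for 83 bases of Atp2a2 (Gm43361) and for 296 and 8 bases of Slc8a1 (AC122399.1 and Gm11096).

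Sarcolipin, encoded by Sln (ENSMUSG00000042045; chr9:53850164-53854560, plus strand), is a pump inhibitor found mainly in atria and skeletal muscle. It was counted 184 and 21 times in sham and 64 and 42 times in TAC, or 5.81 and 0.730 CPM against 2.30 and 1.72 CPM. The sham libraries bracketed both TAC libraries, and the log2 change of -0.71 ± 0.75 had an adjusted p of 0.565 by edgeR. Without sham 2 the change was -1.52 with an adjusted p of 0.0120, and without sham 1 it was 1.46 with an adjusted p of 0.121, both by edgeR. A single sham library therefore set the sign of the change.

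**Figure D2:**
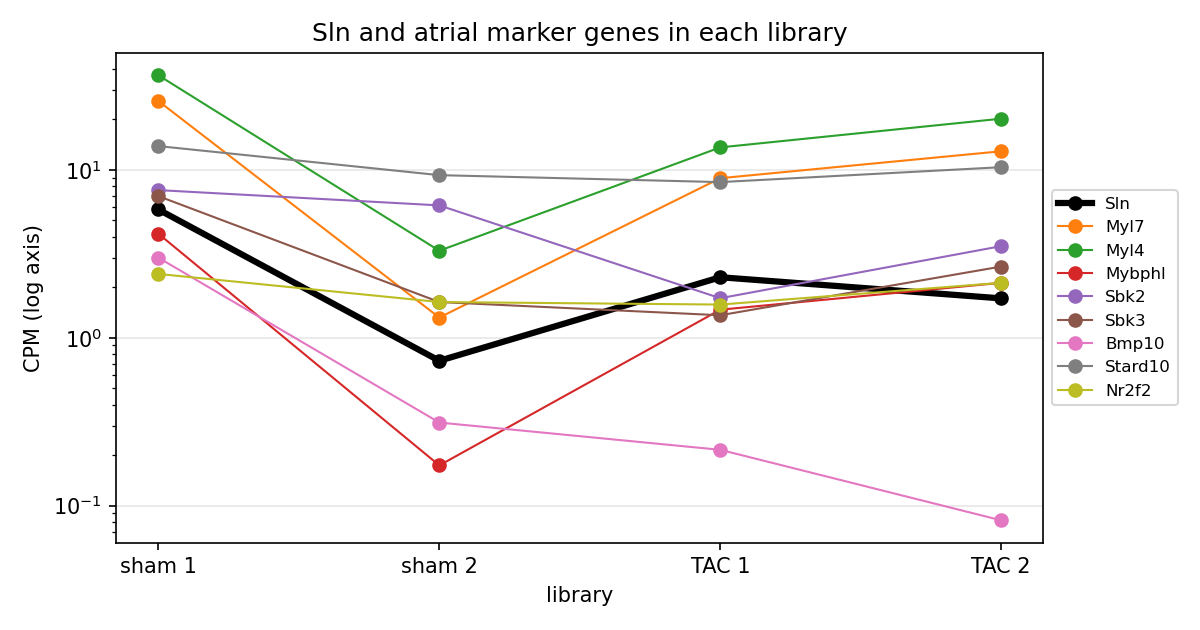
CPM, on a log axis, of Sln (thick line) and of 8 atrial marker genes in each library; lines only join the points of a gene. Sln, Myl7, Myl4 and Mybphl are highest in sham 1 and lowest in sham 2.

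All 8 atrial markers were, like Sln, highest in sham 1. Myl7, Myl4 and Mybphl were also lowest in sham 2, as Sln was, and the other 5 were lowest in a TAC library. The 8 markers summed to 100.4 and 23.8 CPM in sham and 37.4 and 54.0 CPM in TAC. Myl4, an atrial myosin light chain and the most counted of them, stood at 36.7 and 3.30 CPM in sham and at 13.6 and 20.2 CPM in TAC. Skeletal muscle markers were near 0: 4 of 10 had no count in any library, and the sum over the list was between 0.487 and 1.04 CPM, with Tnni2 the most counted. Between the TAC libraries Sln was higher in TAC 1, while the sum of the atrial markers was higher in TAC 2. Sbk2, named after its values were seen, was called lower in TAC, with an adjusted p of 0.0488 by edgeR. The part of atrial cells in the Sln values was not tested.

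Slc8a1 (ENSMUSG00000054640; chr17:81373105-81738377, minus strand) encodes the sodium-calcium exchanger. It stood at 545 and 509 CPM in sham and at 499 and 625 CPM in TAC. The TAC libraries spread to both sides of the sham libraries, with a log2 change of 0.09 ± 0.11 and an adjusted p of 0.629 by edgeR. With total counts the sign turned, to -0.08.

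The kinase gene Camk2d (ENSMUSG00000053819; chr3:126596302-126846326, plus strand) encodes the main cardiac form of the calcium and calmodulin-dependent kinase that phosphorylates the ryanodine receptor and phospholamban. Levels were 138 and 143 CPM in sham and 170 and 162 CPM in TAC. The groups did not overlap, and the log2 change of 0.24 ± 0.07 had an adjusted p of 0.0921 by edgeR. With total counts it was 0.05.

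S100a1 (ENSMUSG00000044080; chr3:90511034-90514392, minus strand) encodes a calcium-binding protein that acts on the pump and the release channel. Its levels were 213 and 231 CPM in sham and 316 and 280 CPM in TAC, with both TAC libraries above both sham libraries. The rise was 1.34-fold, a log2 change of 0.42 ± 0.09 with an adjusted p of 0.0420 by edgeR. With total counts the change was 0.23 and the adjusted p 0.240, and without sham 1 or TAC 1 the adjusted p was 0.0896 and 0.132 by edgeR. Under the replicate block it was 0.0548 by edgeR.

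**Figure D3:**
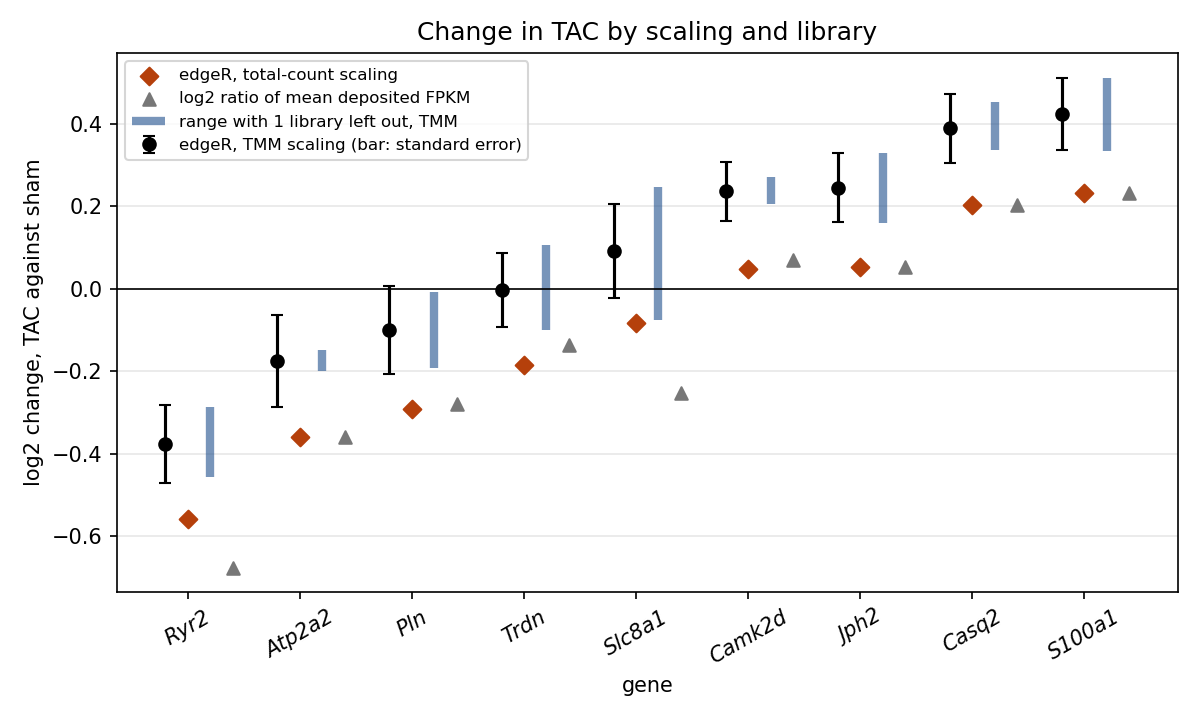
Log2 change in TAC against sham for 9 members (Sln, whose change spans -1.52 to 1.46, is left out), as the edgeR fit with TMM scaling and its standard error, as the fit with total-count scaling, as the ratio of mean deposited FPKM, and as the range with each library left out. Total-count values lie below the TMM values for every gene shown, and Ryr2 is below 0 and Casq2 and S100a1 above 0 in all of them.

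Ratios between members in the same library are free of scaling. For every 100 counts of Ryr2 there were 68.3 and 65.8 counts of Casq2 in sham and 119.6 and 108.6 in TAC, a 1.70-fold difference. Jph2 per 100 Ryr2 counts was 27.2 and 24.8 in sham and 43.9 and 36.2 in TAC, and Camk2d was 8.91 and 8.23 in sham and 13.9 and 12.3 in TAC. All 3 ratios were higher in both TAC libraries, as was Trdn per Ryr2, 13.8 and 14.2 against 18.4 and 18.02.

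Per 100 counts of Atp2a2, S100a1 stood at 1.29 and 1.39 in sham and at 2.196 and 1.87 in TAC, a 1.51-fold difference. Pln per 100 Atp2a2 counts was 26.5 and 28.2 in sham and 31.3 and 26.5 in TAC, so the ratio of inhibitor to pump overlapped between groups. Slc8a1 per Atp2a2 was 3.31 and 3.06 in sham and 3.47 and 4.18 in TAC, while Sln per Atp2a2 overlapped. Of the 8 ratios, 6 did not overlap between groups, beside 60.1% of single genes, and 4 differed by more than 1.5-fold. No such share was computed for ratios of other genes. In the 4 over 1.5-fold, the first gene alone was higher and the second alone lower in both TAC libraries. Their lack of overlap therefore follows from the single-gene values. Of these 4, 1 remained over 1.5-fold without TAC 1 (Casq2 to Ryr2), 2 without sham 2 and 3 without sham 1. The 4 ratios to Ryr2 share its counts, and the 4 to Atp2a2 share those of Atp2a2, so they are not independent of each other. With 2 libraries a group, an exact permutation test cannot go below 0.333 (two-sided), so no ratio could pass this test. No other test of the ratios was run.

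**Figure D4:**
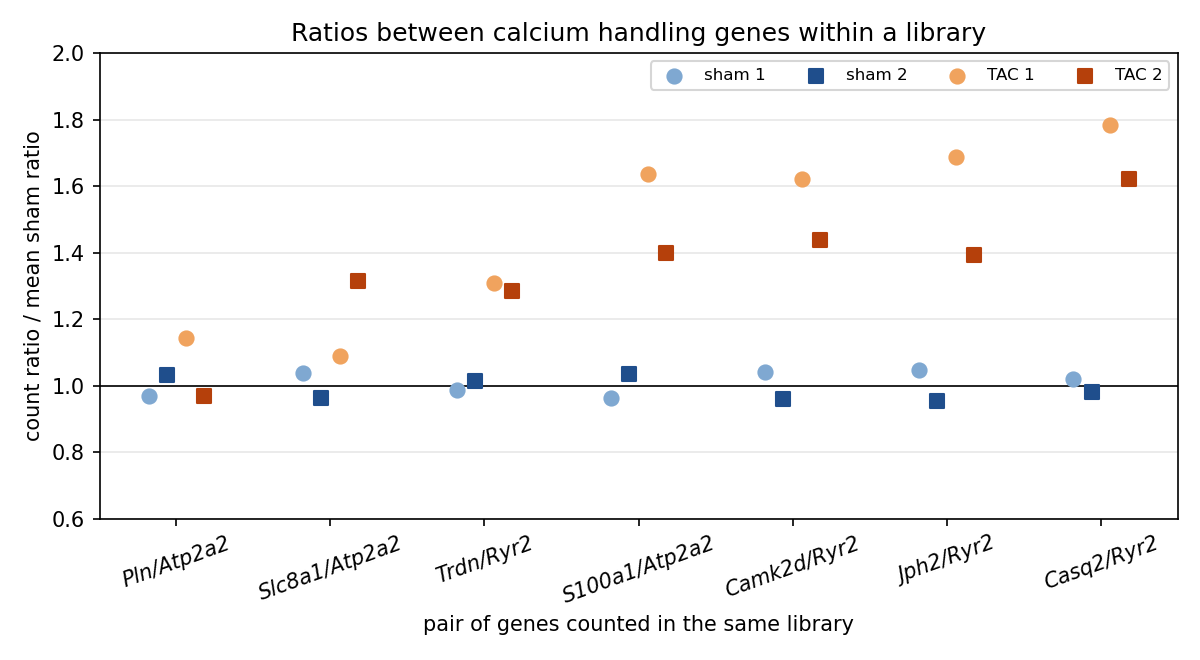
Ratio of 2 genes' counts in each library, divided by the mean ratio of the sham libraries, for 7 pairs. Casq2, Jph2, Camk2d and Trdn against Ryr2 and S100a1 and Slc8a1 against Atp2a2 are higher in both TAC libraries, and Pln against Atp2a2 overlaps.

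The deposited FPKM of Ryr2 and Slc8a1 gave larger differences than their counts. Ryr2 was at 150 and 167 FPKM in sham and 87.4 and 111 FPKM in TAC, a log2 ratio of -0.68, while its counts with total scaling gave -0.56. Dividing count by FPKM and library total gives the transcript length the authors' values imply. For Jph2, Casq2 and S100a1 it was 4210, 2556 and 677 bases, beside longest annotated coding transcripts of 4211, 2556 and 677 bases, with nearly the same value in every library.

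For Ryr2 the implied length averaged 11098 bases in sham and 12047 in TAC, below its longest coding transcript of 16814 bases. For Slc8a1 it was 9329 and 8196 bases in sham and 9513 and 10089 in TAC, a spread of 1.23-fold between libraries. Slc8a1 FPKM were 64.1 and 64.6 in sham and 45.5 and 62.5 in TAC, a log2 ratio of -0.25. Its counts gave -0.08 with total scaling, the scaling compared for Ryr2, and 0.09 with TMM scaling. So part of the FPKM difference of these genes is a difference in the length used, 0.12 for Ryr2 and 0.16 for Slc8a1 on the log2 scale. Which transcripts were counted was not tested.

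**Figure D5:**
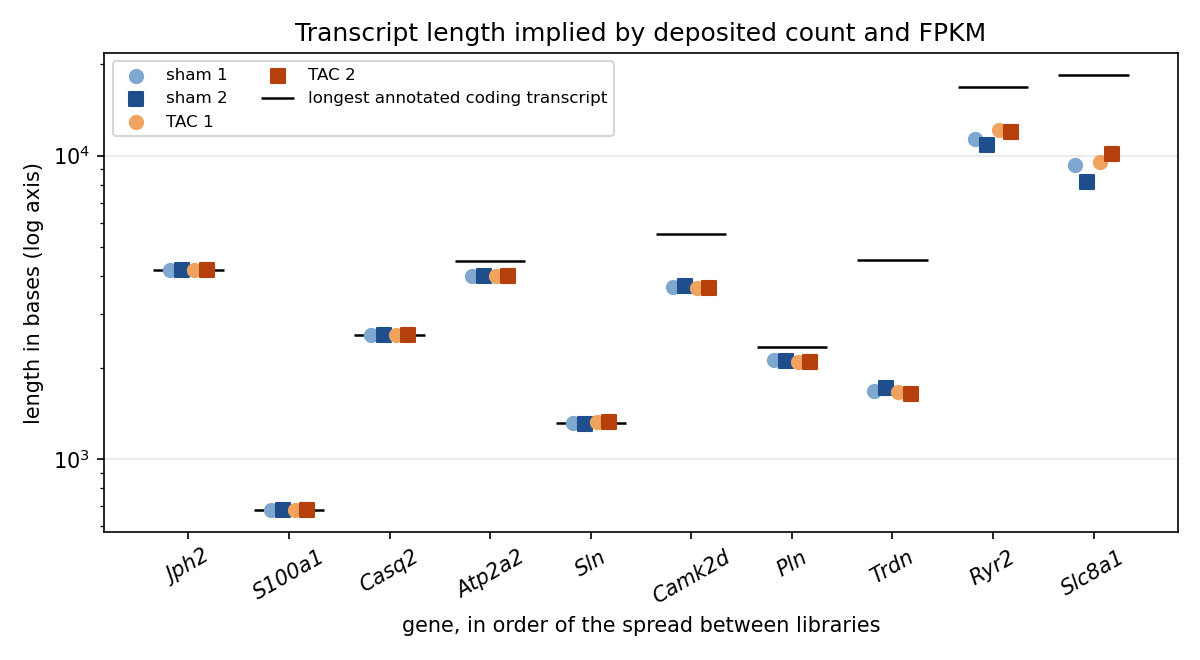
Transcript length in bases, on a log axis, implied by deposited count and FPKM for each member in each library, with the longest annotated coding transcript as a black bar. Jph2, S100a1, Casq2 and Sln sit on the bar, while Ryr2 and Slc8a1 sit below it and differ most between libraries.

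Beyond the members, 69 genes of the same pathway were listed, 67 had a row and 59 were tested. Of these, 4 were called, or 6.78%, against 5.01% of all genes. Casq1, the skeletal calsequestrin, rose most, from 5.50 and 5.04 CPM in sham to 15.2 and 12.5 CPM in TAC, a log2 change of 1.39 ± 0.15 with an adjusted p of 0.00641 by edgeR. Asph, whose locus also encodes the store protein junctin, rose by 0.47 ± 0.08, with an adjusted p of 0.0251 by edgeR, from 241 and 224 to 310 and 336 CPM. Saraf, a brake on store-operated entry, rose by 0.40 ± 0.07, with an adjusted p of 0.0282 by edgeR, from 304.5 and 299.5 to 389.8 and 409.5 CPM. Itpr3, an inositol trisphosphate receptor, fell by 1.10 ± 0.24 on the log2 scale, with an adjusted p of 0.0465 by edgeR, from 5.53 and 5.004 to 2.01 and 2.94 CPM. Without sham 1 or TAC 1 the adjusted p of Itpr3 was 0.0845 and 0.132, and without sham 2 that of Saraf was 0.0579, all by edgeR. Without TAC 2, 7 pathway genes were called, where 10.3% of all genes were.

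Among release genes, 1 of 11 tested was called, in the store lumen and junction list 2 of 12, and in the extrusion and mitochondrial list 1 of 17, against 5.01% of all genes. The smallest adjusted p by edgeR was 0.111 among 10 uptake genes and 0.213 among 9 genes of the kinase and S100 list. With total counts, Asph and Saraf had adjusted p of 0.239 and 0.336 by edgeR, and under the replicate block Saraf had 0.0527.

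The markers of other cell types were also followed. All 10 tested genes of each of the endothelial, fibroblast, macrophage and mural lists had a log2 change below 0, with medians of -0.62, -0.86, -0.88 and -0.78. Called lower by edgeR were 3 endothelial, 4 fibroblast and 2 mural genes of 10 in each list, against 2.43% of all genes, and the smallest adjusted p of a macrophage gene was 0.0912. The fibroblast list summed to 508 and 353 CPM in sham and to 192 and 272 CPM in TAC. Gsn, its most counted gene and 1 of its 4 called genes, made up much of these sums. It stood at 265 and 177 CPM in sham and at 93.8 and 134 CPM in TAC. The endothelial list went from 590 and 462 to 277 and 387 CPM, led by Kdr, the macrophage list from 129 and 65.7 to 36.0 and 66.3 CPM, led by Lyz2, and the mural list from 758 and 796 to 440 and 579 CPM. Abcc9, the most counted gene of the mural list and 1 of its 2 called genes, encodes a potassium channel subunit that cardiomyocytes also express. Without it the list summed to 378 and 390 CPM in sham and 161 and 276 CPM in TAC, with a median of -0.86 and 1 gene called. The 10 listed cardiomyocyte markers were abundant. Myh6, the most counted of them, stood at 24725 and 29438 CPM in sham and 24538 and 23196 CPM in TAC. Of these 10 genes, 8 had a log2 change above 0 and 2, Myh6 and Tcap, below it, with a median of 0.20. The 1 called was Tcap, a sarcomere protein gene named here after its values were seen, which fell from 722 and 952 to 435 and 455 CPM, a log2 change of -0.91 with an adjusted p of 0.0148 by edgeR. These bulk values cannot tell fewer cells of a type from less RNA per cell, and the part of cell makeup in the members' changes was not tested.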

How the data were processed

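The authors deposited, for each of 4 libraries, estimated counts per gene and FPKM, and the submitters' processing notes name Bowtie2 2.2.8, StringTie 1.3.1 and the mm10 build without their roles. Neither the counting program nor the use of strand was given in the sources used here. The deposited expected counts were rounded to whole numbers, and the 10 calcium handling genes were whole already. Per the labels, the samples fall into 2 sham and 2 TAC libraries, and the study's methods describe cells isolated from separate hearts. Total counts ran from 24237777 to 32118323, which limits precision to counting error plus the spread of 2 libraries. Counts were compared within groups only to see whether a library had been deposited more than once, and differed by 8.08 (sham) and 26.7 (TAC) chi-square per degree of freedom.

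Genes were kept with the low-count filter of edgeR 4.0.16, in R 4.3.3. TMM scaling and the quasi-likelihood test, two-sided with Benjamini-Hochberg adjustment over all 12499 genes tested, gave the fold changes. A gene was called at an adjusted p under 0.05. Each standard error was worked back from the log2 change and the F statistic of the test. It therefore draws on the variance of all genes, not only on 2 libraries a group. The study's methods name scaling to total counts, tried here as another setting beside totals without mitochondrial genes, DESeq2 1.42.0, limma 3.58.1 (voom on counts, and log2(FPKM + 1) of deposited FPKM), no filter, a replicate block and each library left out. The code was tested on simulated data. Ratios of 2 genes' counts within a library were tested by exact permutation. CPM values are counts scaled by the TMM-adjusted library total.

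Of the genes, all 10 members are given in every library, with each other pathway gene that was called and the most counted gene of each cell type list. The members and lists were chosen with earlier results of these data known. Transcripts, exons and coordinates came from GENCODE M21 on GRCm38 (mm10), and promoter windows from RefSeq on GRCm38.p6. The motifs searched there were settled after the windows had been searched once.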

Additional observations from a re-analysis of the deposited data

How the results depend on the processing

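The edgeR result of the members changed with scaling, as did the count of calls. For Ryr2, the log2 change and adjusted p were -0.56 and 0.0490 with total counts, -0.47 and 0.0307 with totals without mitochondrial genes, -0.38 and 0.00243 with DESeq2, -0.37 and 0.0166 without a low-count filter, -0.38 and 0.0450 with limma-voom, -0.68 and 0.0174 with limma on log2(FPKM + 1) and -0.68 and 0.0203 with a pseudocount of 0.1, and -0.43 and 0.0451 without TAC 2. It was not called with the replicate block (0.104), with limma on FPKM without a filter (0.217), or without sham 1 (0.0515), sham 2 (0.213) or TAC 1 (0.190). Casq2 was 0.20 (adjusted p 0.337) with total counts, 0.29 (0.0547) without mitochondrial genes, 0.39 (0.0912) with the replicate block, and 0.20 in limma on FPKM with a pseudocount of 1 (0.355), of 0.1 (0.352) or without a filter (0.411). S100a1 was 0.23 (0.240), 0.32 (0.0535), 0.42 (0.0548), 0.23 (0.250), 0.23 (0.245) and 0.23 (0.298) in the same order. Slc8a1, never called, changed sign to -0.084 with total counts, -0.0063 without mitochondrial genes, and -0.27 in limma on FPKM with a pseudocount of 1, of 0.1 or without a filter. The log2 ratio of mean deposited FPKM, with no test, was -0.68 for Ryr2, -0.36 for Atp2a2, -0.28 for Pln, 0.20 for Casq2, -0.25 for Slc8a1, 0.052 for Jph2, -0.14 for Trdn, 0.070 for Camk2d and 0.23 for S100a1. From FPKM the ratio differences were 0.094 for Slc8a1 to Atp2a2, 0.88 for Casq2 to Ryr2, 0.54 for Trdn to Ryr2 and 0.75 for Camk2d to Ryr2.

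Members called numbered 2 in edgeR, 1 with total counts, 1 without mitochondrial genes and 0 under the replicate block, where 5.01%, 4.22%, 5.1% and 4.53% of all genes were called. They were 3 with DESeq2, without a filter and with limma-voom, where 7.4%, 10.5% and 5.54% of all genes were called. They were 0 at an adjusted p under 0.01 and 4 at one under 0.1, where 0.736% and 14.5% of all genes passed. Called higher were 0 with total counts, 0 without mitochondrial genes, 0 with the replicate block and 0 at an adjusted p under 0.01. Called lower was 1, Ryr2, with total counts, without mitochondrial genes, with DESeq2, without a filter, with limma-voom and at an adjusted p under 0.1. Pathway genes called were 8 without a filter, where 10.5% of all genes were called. Same-numbered libraries did not deviate together (correlation -0.242). With 2 libraries a group the deviations mirror each other, so sham 1 and TAC 2 deviated together by the same size. The methods speak of pairs of sham and TAC mice without naming the libraries of a pair. It is therefore not known whether the numbers pair them. Chosen after seeing the data, a crossed replicate block called 4 members, 1 of them lower, and 13 pathway genes, where 17% of all genes were called, with Ryr2 at -0.38 (0.0275) and Camk2d at 0.24 (0.0412).

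Leaving out each library in turn gave ranges of -0.46 to -0.29 for Ryr2, -1.52 to 1.46 for Sln, 0.34 to 0.45 for Casq2, -0.076 to 0.25 for Slc8a1, -0.10 to 0.11 for Trdn, -0.19 to -0.0088 for Pln, 0.16 to 0.33 for Jph2 and 0.33 to 0.51 for S100a1. The log2 difference of the ratio ranged from 0.12 to 0.39 for Slc8a1 to Atp2a2, from -1.38 to 1.63 for Sln to Atp2a2 and from -0.044 to 0.19 for Pln to Atp2a2, where it turned sign without TAC 1. The difference ranged from 0.70 to 0.84 for Casq2 to Ryr2, 0.48 to 0.76 for Jph2 to Ryr2, 0.52 to 0.70 for Camk2d to Ryr2 and 0.48 to 0.71 for S100a1 to Atp2a2. Members called ranged from 0 to 3, called higher from 0 to 2, called lower from 0 to 1 and pathway genes called from 3 to 7, while the share of all genes called ran from 2.34% without TAC 1 to 10.3% without TAC 2. The fit with a library left out assumes that the lone library of its group varies like the other group. Of called pathway genes, Asph and Saraf missed the threshold with total counts and without mitochondrial genes (0.0547 and 0.0557), Saraf also with the replicate block (0.0527) and without sham 2, and Itpr3 without sham 1 or TAC 1. The cause of these differences was not tested.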
